A study of Drosophila melanogaster with 3 samples.

Results

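The 10 genes described here encode enzymes that build and edit heparan sulfate in Drosophila and the 2 glypican core proteins, dally and dlp, that carry it. They were set against 13945 protein-coding genes of the annotation. The set was chosen from measured values, because the peak at sgl is among the strongest of the deposited lists, so the number and height of peaks at these genes is a description and was not tested. The data are chromatin immunoprecipitation followed by sequencing (ChIP-seq) of whole embryos, both sexes pooled, aged 0 to 16 h, from a stable transgenic line in which the CG5180 protein has GFP fused to its C-terminus. Chromatin was sonicated to 200 to 800 bp and precipitated with an antibody against GFP. There is 1 group, with 3 biological replicates, and neither a control library nor embryos without the tag were analysed here, so regions recovered in any GFP precipitation cannot be told apart from sites of the tagged protein. A peak says nothing about the expression of a gene, and embryos of these ages mix many cell types.

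Heparan sulfate is a long sulfated sugar chain that is assembled in the Golgi on core proteins and displayed at the cell surface or in the matrix. Its building blocks are nucleotide sugars. Chain-lengthening enzymes of the exostosin family polymerise them, and sulfotransferases then modify the chain in place. In the fly embryo and imaginal discs these chains, mostly on glypicans, shape the distribution and signalling of Wingless, Hedgehog, Decapentaplegic and FGF.

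Peaks were taken from 5 deposited lists on genome build dm6, which are an IDR list of 5400 peaks, a pooled list of 30000 and 1 list of 30000 for each replicate. IDR (irreproducible discovery rate) compares the ranks of peaks across lists. Here its 5400 peaks were exactly the strongest 5400 of the pooled list, so an IDR summit need not rank alike in every replicate. The pooled list is labelled as peaks and background for input to IDR, so its entries beyond the IDR list can be background. The signal value is the score that the authors' caller gave each peak, and rank 1 is the strongest. It is compared only within a list, since lists are not scaled to each other and their read depth is unknown. A peak belonged to a gene when its summit lay in the gene body or within 5 kb of it, and lay at a transcription start site (TSS) when within 250 bp of one.

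Of the 10 genes, 9 had at least 1 IDR summit, against 40.5% of all protein-coding genes, and sotv was the exception. All 10 had a summit in the longer pooled list, which includes background, against 70.9% of all genes. Long genes offer more bases to the rule, and the median length was 34021.5 bp for these genes and 2166 bp for all genes. All 6 members of 20 kb or more (ttv, sfl, Hs6st, dally, dlp and Sulf1) had an IDR summit, against 70.5% of the 1013 protein-coding genes of that length. Of the 4 shorter members, 3 had one, against 38.1% of the protein-coding genes under 20 kb. The part of gene length in these counts was not tested beyond this split.

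An IDR summit lay at a TSS of 5 of the 10 genes (sgl, sfl, Hs2st, dally and dlp), against 12.0% of all protein-coding genes. In the pooled list 7 of the 10 had one, with ttv and Sulf1 added, against 28.2% of all genes. Together the 10 genes held 35 IDR summits, and 114 further summits that appeared in the pooled list only. Of the 35, 5 lay at a member's own TSS, 15 in its introns and 1 in an exon, while 8 lay at the TSS of another gene and 6 elsewhere in the flanks. Of all IDR summits, 31.0% lay within 250 bp of the TSS of some protein-coding gene. For 26 of the 35 the nearest TSS belonged to another gene.

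Most of the 35 peaks lay in the weaker part of the IDR list. The peaks counted for sgl are among the 35, at ranks 2, 1901, 2194 and 2779. The median signal value of the 35 summits was 267, against 313 for all IDR peaks, and 23 of them lay among the weaker 2700 peaks. The strongest summit of each gene had a median of 399, against 430 over the 5646 genes that had one. Only 2 of the 35 were among the strongest 540 peaks of the IDR list, at sgl and in the flank of Hs2st.

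**Figure D1:**
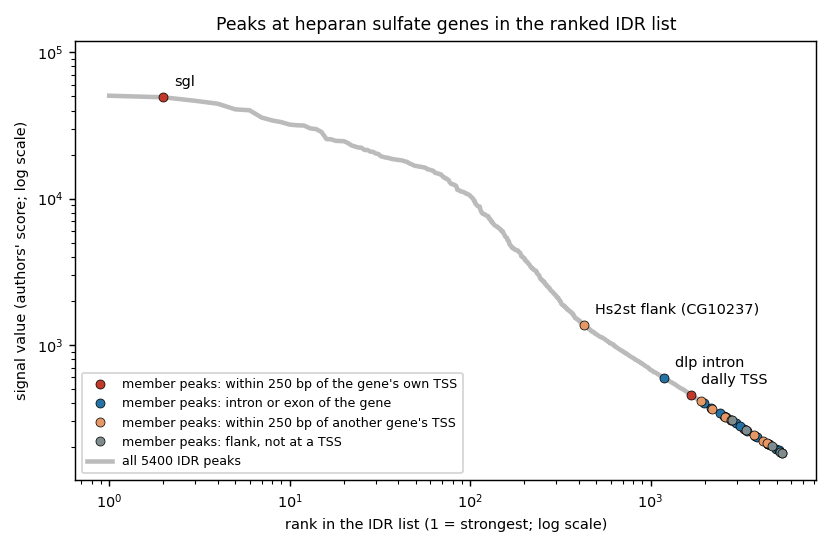
Signal value (vertical, log scale) against rank in the IDR list (horizontal, log scale), with the 35 member peaks as coloured points, by position, on the grey curve of all 5400 peaks. The sgl peak sits at rank 2, the peak in the Hs2st flank at rank 430, and the other 33 from rank 1191 down.

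The gene sgl (FBgn0261445, arm 3L, 6959554 to 6964758, minus strand) encodes UDP-glucose dehydrogenase, which makes the UDP-glucuronic acid used for heparan sulfate and other glycosaminoglycans. Its single annotated TSS carried the second strongest peak of the IDR list, with a signal value of 49261, and by its strongest peak sgl ranked 3 among the 5646 genes. The peak runs from 6963885 to 6965841 and is 1957 bp wide, against a median of 464 bp, with its summit at 6964954, 196 bp upstream of the TSS. The 201 bases around that summit, shown because they underlie the strongest signal of the set, read as follows in the RefSeq sequence of genome release 6 (dm6), on the gene's strand, with the CATATG E-box and a TATAAA match on the opposite strand in capitals:
sgl, chr3L:6964854-6965054, minus strand: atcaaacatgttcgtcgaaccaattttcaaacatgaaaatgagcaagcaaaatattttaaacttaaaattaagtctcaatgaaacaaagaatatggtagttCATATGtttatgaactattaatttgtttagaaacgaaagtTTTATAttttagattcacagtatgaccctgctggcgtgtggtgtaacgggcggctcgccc
The window is 33.3% G and C, against a median of 40.3% over all IDR summits, and ends 96 bp before the TSS.

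The replicates gave the same place and nearly the same rank for the sgl peak. Its signal value was 21142 in replicate 1, 16783 in replicate 2 and 11597 in replicate 3, at ranks 2, 1 and 3 of those lists. The summit lay 212, 193 and 200 bp upstream of the TSS, in peaks 1520, 1542 and 1280 bp wide. The lists differ in scale, and the peak at rank 100 had 4429, 3619 and 2493 in replicates 1, 2 and 3.

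Set against the other members' own promoters, sgl stood far apart within every list. Its IDR signal value was 108 times that of the next strongest own-TSS peak, at dally, and 82.9 times that of the strongest peak inside any other member, in an intron of dlp. In the replicate lists the ratio to the next strongest own-TSS peak, which was dally in replicates 1 and 3 and dlp in replicate 2, was 106, 94.7 and 87.5, or 96.0 ± 9.28 (SD, n = 3). These ratios describe scores and are not fold enrichments.

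No second IDR summit lay at the sgl promoter or in its gene body. Only 1 pooled summit lay inside the broad peak, and the next one, 909 bp into the gene, had a signal value of 162 and rank 6250, below the IDR limit. Its rank differed between replicates, at 2924 in replicate 3 (871 bp) and 18423 in replicate 1 (906 bp), and replicate 2 had no summit within 200 bp. The 3 other IDR summits within 5 kb of the gene lay at neighbours. One lay 3 bp from the TSS of CG9948, with a signal value of 412. The 2 others, with 366 and 308, lay 8 and 192 bp from the TSS of Mis12, which encodes a kinetochore protein, and in each replicate the strongest summit within 200 bp was the same for both.

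**Figure D2:**
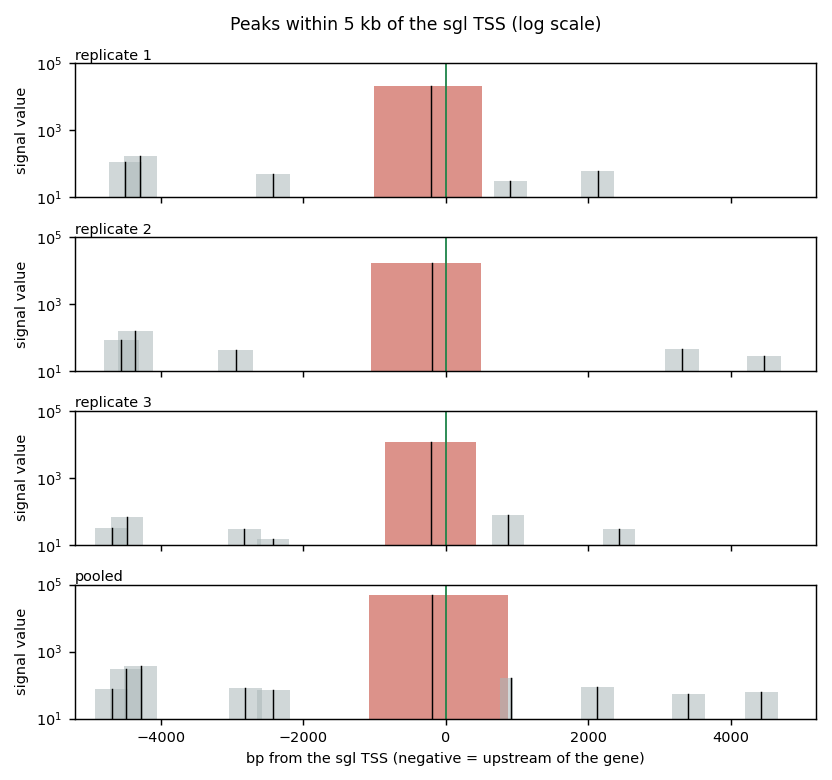
Peaks within 5 kb of the sgl TSS in the 3 replicate lists and the pooled list, with distance from the TSS in bp (negative is upstream) and signal value on a log scale; boxes span each peak, black lines mark summits and the green line the TSS. In each panel 1 peak (red), 193 to 212 bp upstream, stands above all others, whose values lie at 366 or lower.

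The chain-lengthening enzymes had no IDR peak at any of their promoters. They are ttv (FBgn0265974), sotv (FBgn0029175) and botv (FBgn0027535), the fly relatives of the vertebrate EXT1, EXT2 and EXTL3, and all 3 lie on arm 2R. The first, ttv, spans 61651 bp on the plus strand, from 14526267 to 14587917, and has 3 TSSs. Its 3 IDR summits are intronic, with signal values of 399, 279 and 235, and lie 10365, 13912 and 11167 bp from the nearest TSS of ttv.

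In each case the nearest TSS was that of LamC, which encodes the nuclear lamin C and lies inside ttv on the opposite strand. The strongest ttv summit ranked 1618, 2351 and 2665 in replicates 1, 2 and 3, with signal values of 189, 135 and 84.1. At the second ttv TSS there was no IDR summit, but the pooled list had one 39 bp upstream, with a signal value of 62.3 and rank 20653. Replicate 1 had it 36 bp upstream, with a signal value of 33.0 and rank 17385, and the nearest summits of replicates 2 and 3 lay 648 and 461 bp away.

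The gene botv (19129589 to 19133706, plus strand), whose product is thought to start the chain, had 2 weak IDR summits, both outside it. One lay 51 bp from the TSS of CG15111, with a signal value of 221 and replicate ranks of 4415, 4422 and 5473. The other lay 1524 bp upstream of botv and 441 bp from the TSS of CG15117, with a signal value of 184. It ranked 5346 of 5400 in the IDR list, and 5003, 8014 and 5143 in the replicates.

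The gene sotv (16145904 to 16148719, minus strand) was the one member without an IDR summit. Its only pooled summit lay 2275 bp upstream, with a signal value of 92.3 and rank 12696. Replicate 2 alone had a summit at the TSS, 127 bp upstream, with a signal value of 72.2 and rank 5432, while the nearest in replicates 1 and 3 lay 2077 and 1586 bp away. The nearest IDR summit was 5888 bp outside the gene, just beyond the distance used, with a signal value of 288.

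The enzymes that modify the chain had moderate peaks at the TSS in sfl and Hs2st and none there in Hs6st. The gene sfl (FBgn0020251, 3L, 6495680 to 6550104, plus strand) encodes the N-deacetylase/N-sulfotransferase that acts first on the chain. Its strongest IDR summit lay in an exon 703 bp downstream of the first TSS, with a signal value of 340. The replicates gave it 155, 143 and 64.0, at ranks 2099, 2169 and 3860.

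A second sfl summit, with a signal value of 267, lay 73 bp upstream of the downstream TSS, where it ranked 4042, 3469 and 3365 in the replicates. Of the 4 annotated sfl transcripts 1 starts at that TSS, while the other 3 use the same base as the start of an internal exon, so the site is also the end of an intron. The 173 bases before it, shown because the promoter and splice site coincide there, hold none of the 7 motifs searched:
sfl, chr3L:6522857-6523029, plus strand: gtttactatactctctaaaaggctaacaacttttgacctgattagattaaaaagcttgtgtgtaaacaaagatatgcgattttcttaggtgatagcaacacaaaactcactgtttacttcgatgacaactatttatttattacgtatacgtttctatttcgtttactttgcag
At the first TSS there was no IDR summit, but the pooled list had one 228 bp upstream, with a signal value of 160 and rank 6360. That summit lay nearer to a TSS of Vps8, at 155 bp. The replicates had the summit 240, 226 and 230 bp upstream of the first sfl TSS, at ranks 4512, 15726 and 13507. The remaining 3 IDR summits of sfl lay downstream inside MCU, which encodes the mitochondrial calcium uniporter, with signal values of 305, 203 and 183.

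The gene Hs2st (FBgn0024230, 2L, 19442833 to 19444750, minus strand) encodes the 2-O-sulfotransferase and is the shortest member. It lies inside RanGAP, which encodes the GTPase-activating protein of Ran and runs on the opposite strand. An IDR summit with a signal value of 326 lay 180 bp upstream of the Hs2st TSS and 118 bp from an internal TSS of RanGAP, and these 2 TSSs are 298 bp apart. It had signal values of 93.5, 136 and 90.8 and ranks of 4090, 2332 and 2422 in the replicates, and cannot be given to either gene by position. The 122 bases around it, up to the edge of a RanGAP exon, shown because both genes have a TSS nearby, hold 1 TATAAA match, in capitals:
Hs2st, chr2L:19444830-19444951, minus strand: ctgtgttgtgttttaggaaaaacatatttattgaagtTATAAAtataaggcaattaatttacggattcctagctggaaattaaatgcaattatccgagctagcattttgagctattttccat

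The strongest summit counted for Hs2st was not at its promoter. It had a signal value of 1373 at rank 430 and lay 3968 bp past the 3' end of the gene, 101 bp from a TSS of CG10237. Its ranks of 473, 409 and 494 in the replicates, with signal values of 524, 545 and 311, were close to each other. The remaining summit, with a signal value of 260, also lay inside CG10237.

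The gene Hs6st (FBgn0038755, 3R, 19929277 to 20008512, minus strand) encodes the 6-O-sulfotransferase, which acts in FGF signalling during tracheal development, and is the longest member. It had 2 intronic IDR summits, 9914 and 8797 bp downstream of its TSS, with signal values of 321 and 258. The stronger ranked 3532, 2431 and 2837 in the replicates, and the weaker 3071, 4631 and 4748. At the TSS only replicate 3 had a summit, 156 bp upstream, with a signal value of 31.1 and rank 10505.

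The glypicans dally and dlp had an IDR summit at the TSS and several in their introns, and together held 14 of the 35 summits and 9 of the 15 intronic ones. Glypicans are core proteins tied to the membrane by a lipid anchor, and both are known to act on Wingless, Hedgehog and Decapentaplegic signalling. The gene dally (FBgn0263930, 3L, 8827505 to 8891192, plus strand) had 6 IDR summits. Among the 1013 genes of 20 kb or more, 138 (13.6%) had at least as many.

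The summit at the dally TSS, 31 bp downstream of it, had the highest signal value of an own promoter after sgl, at 456 in the IDR list. It had signal values of 200, 158 and 133 in the replicates, at ranks 1507, 1897 and 1446, with summits 21 bp downstream, 19 bp upstream and 2 bp upstream. The 69 bases before the TSS, shown because this promoter peak was found at like ranks in all 3 replicates, hold 1 GCCAT match on the opposite strand, in capitals:
dally, chr3L:8827436-8827504, plus strand: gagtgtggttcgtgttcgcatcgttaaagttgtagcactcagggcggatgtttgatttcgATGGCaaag

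Inside dally, 4 intronic IDR summits had signal values of 370, 210, 211 and 239, at 5307, 5506, 7584 and 24383 bp from the TSS. The peaks at 5307 and 5506 bp overlap each other. For all 4 the nearest TSS was that of CG32026, which lies inside dally, at 3650, 3451, 1373 and 15426 bp. The strongest of the 4 summits ranked 1777, 3442 and 2086 in the replicates. The sixth summit lay past the 3' end, 250 bp from the TSS of Mcm7, a subunit of the replicative helicase, with a signal value of 323. It ranked 2142 in replicate 1 and 2815 in replicate 3, but the nearest summit in replicate 2 lay 8837 bp away. It was the 1 summit of the 35 that did not appear in all 3 whole replicate lists. The replicates also differed in how many of their 5400 strongest peaks lay at dally, with 10, 4 and 8.

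The gene dlp (FBgn0041604, 3L, 14632601 to 14671609, plus strand) had the most IDR summits of the set, 8, and 79 (7.80%) of the genes of 20 kb or more had at least as many. Among the 5400 strongest peaks of each replicate it had fewer, 7, 4 and 3. Its strongest was intronic, 33549 bp downstream of the TSS, with a signal value of 594 at rank 1191. The replicates gave this summit ranks of 1345, 1270 and 1245 and signal values of 218, 215 and 148. It lay 6287 bp from the nearest TSS of any gene, that of CG43121. Its 201 bases, shown because this is the strongest peak inside any member, hold a CAAATG E-box and a TATAAA match on the opposite strand, in capitals:
dlp intron, chr3L:14666050-14666250, plus strand: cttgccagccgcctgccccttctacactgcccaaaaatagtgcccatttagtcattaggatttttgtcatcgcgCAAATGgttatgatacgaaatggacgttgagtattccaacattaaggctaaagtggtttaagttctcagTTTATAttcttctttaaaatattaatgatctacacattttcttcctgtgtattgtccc

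The replicates did not give the dlp promoter the same rank. The IDR summit, 134 bp upstream of the TSS, had a signal value of 305. Replicates 1 and 2 had it at ranks 3640 and 1650, with signal values of 102 and 177, but replicate 3 had it at rank 23019, with 17.7. Without replicate 1 or without replicate 2, dlp no longer counted among the genes with a TSS peak found in both remaining lists, so that count rests on replicates 1 and 2. The window around the summit, shown because its 3 CGATA matches, in capitals, were found in 1.43% of all IDR windows and in 3.22% of those at a TSS (among the 35 also in the ttv intron, at the summit with 279), reads:
dlp promoter, chr3L:14632367-14632567, plus strand: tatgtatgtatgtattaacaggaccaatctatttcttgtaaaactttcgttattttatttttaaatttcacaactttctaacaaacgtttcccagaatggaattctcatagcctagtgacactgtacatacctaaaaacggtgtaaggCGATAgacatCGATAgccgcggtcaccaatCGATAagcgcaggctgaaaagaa
The 4 other intronic summits of dlp were weak, with signal values between 190 and 210. The last 2 lay at or near ome, which encodes a dipeptidyl peptidase, with 212 at 1 bp from its TSS and 187 at 629 bp.

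The gene Sulf1 (FBgn0040271, 3R, 16310542 to 16339575, minus strand) encodes an extracellular sulfatase that removes 6-O-sulfate groups from finished chains. It had 1 intronic IDR summit, 6685 bp downstream of its nearest TSS and 4009 bp from that of CG17930, which lies inside Sulf1. This summit had a signal value of 293 and ranks of 3138, 2939 and 4105 in the replicates. The other lay 2564 bp upstream, 151 bp from the TSS of SF2, a splicing factor, with a signal value of 242 and ranks of 3401, 3706 and 7613. At the second Sulf1 TSS there was no IDR summit, but the pooled list had one 49 bp downstream, with a signal value of 123 and rank 8800. The summits nearest that TSS in replicates 1 and 2 lay 49 and 14 bp downstream, with signal values of 44.8 and 49.4 and ranks of 11190 and 9128. Replicate 2 also had a stronger one 169 bp downstream of the pooled summit, with 65.6 and rank 6214. In replicate 3 the nearest summit to the TSS lay 586 bp away.

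**Figure D3:**
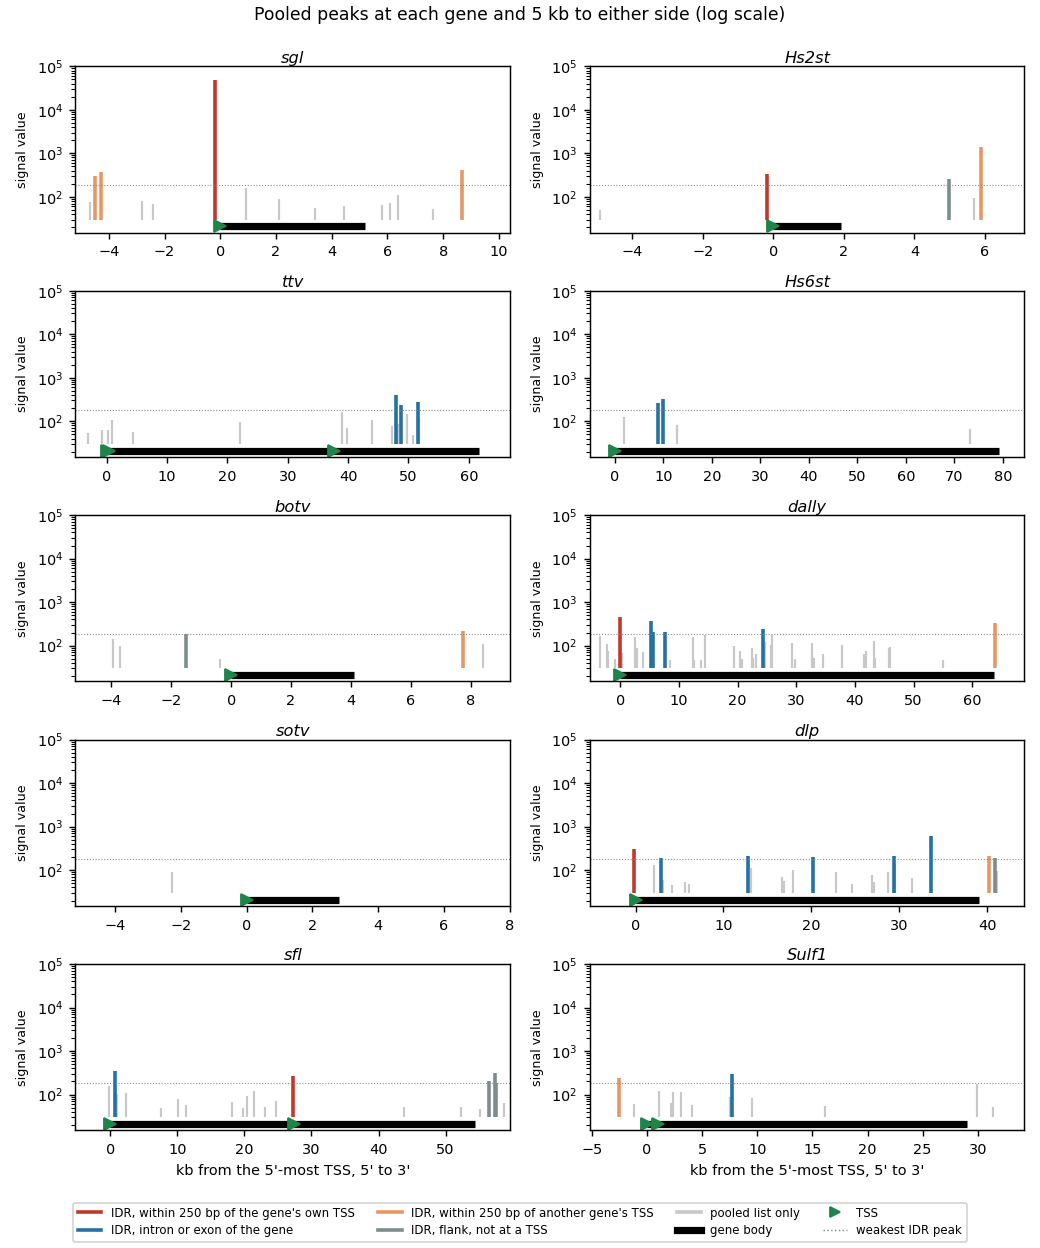
Pooled summits at each of the 10 genes and 5 kb to either side, with distance from the most upstream TSS in kb, read 5' to 3', and signal value on a log scale; colours mark IDR summits by position, grey lines are summits of the pooled list only, black bars gene bodies and green arrows TSSs. The line at the sgl TSS, at 49261, stands above all others, dally and dlp carry several IDR summits along their length, and sotv has none.

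Members of like length differed in their number of summits. In its length class dlp, with 8, was above the 90th percentile, which was 5 for genes of 20 to 40 kb, though replicates 2 and 3 gave dlp only 4 and 3. The same held for sgl, with 4 against 3 in the class of 5 to 10 kb, and for Hs2st, with 3 against 2 in the class of 1 to 2 kb, although in both 1 summit lay at the gene's own TSS and the rest at or in neighbours. Of the 4 counted for sgl, the 2 at Mis12 lay in overlapping peaks. The long genes Hs6st and ttv had 2 and 3, near the mean of 3.00 for the class of 40 to 80 kb.

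**Figure D4:**
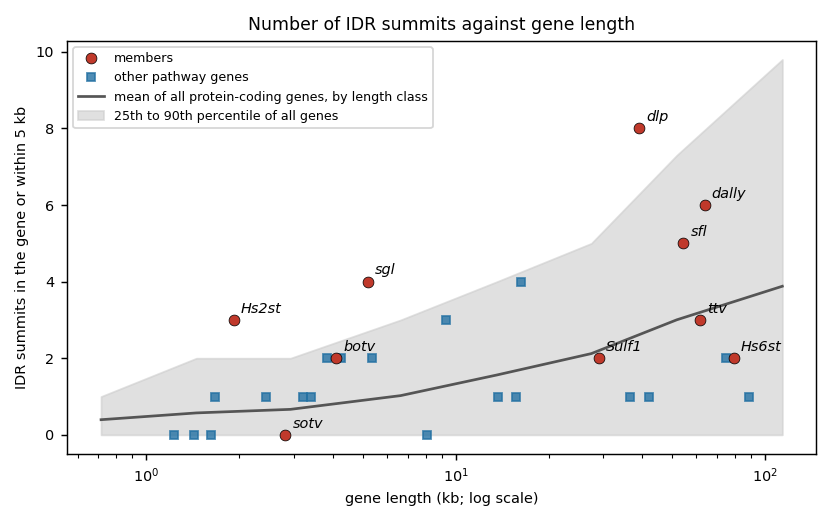
Number of IDR summits in the gene or within 5 kb (vertical) against gene length in kb (horizontal, log scale) for the 10 members (red circles) and 19 other pathway genes (blue squares); the line is the mean of all protein-coding genes by length class and the grey band their 25th to 90th percentile. The points for dlp, sgl and Hs2st lie above the band, at 8, 4 and 3.

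Across replicates, 34 of the 35 summits had a summit within 200 bp in all 3 lists of 30000. Among the 5400 strongest peaks of each replicate, replicate 1 held 30, replicate 2 held 27 and replicate 3 held 27, and 19 of the 35 were in all 3, against 68.7% of all IDR peaks. A further 12 were in 2 replicates, 3 in 1 and 1 in none. Neighbouring IDR summits can share 1 replicate peak, as at Mis12, in the first dally intron peaks and in MCU in replicate 2. Of the strongest peaks of the 9 genes, 8 were among the 5400 strongest of all 3 replicates, which their choice by height in the pool of the same replicates favours. The exception was botv, at rank 5473 in replicate 3.

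**Figure D5:**
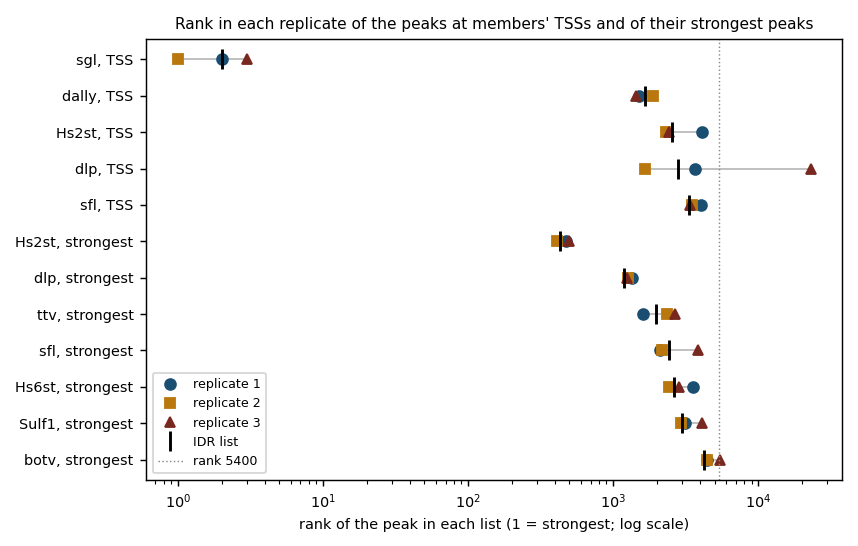
Rank (horizontal, log scale, 1 is strongest) in replicates 1 to 3 and in the IDR list of the 5 peaks at members' own TSSs and of the strongest peak of the other genes or other positions; the dotted line marks rank 5400. The sgl peak lies at ranks 1 to 3, and the dlp promoter peak spans ranks 1650 to 23019.

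The motif search covered 7 short sequences on both strands within 100 bp of each summit, and its matches are descriptions of letters, not sites. An E-box (CANNTG) was found at 26 of the 35 summits, against 63.2% of all IDR summits. Of the 5 summits at members' own TSSs 1, at sgl, had one. The GAGA factor motif (GAGAGAG) was found at 0 of 35, against 6.74% of all. TATAAA was found at 9, against 25.6%, GCCAT (the Pho core) at 12, against 27.5%, and CGATA (the BEAF-32 core) at 7, against 24.1%. The palindrome TATCGATA (DREF), which contains CGATA, was found at 1, near the TSS of SF2, against 1.07%. CAGGTAG (Zelda) was found at 1, in a dally intron, against 1.06%. The median G and C content was 38.3% at the 35 summits and 40.3% at all IDR summits.

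A further list held 19 other heparan sulfate and proteoglycan genes, called other pathway genes here. Of these, 15 had an IDR summit in the gene or within 5 kb, against 40.5% of all protein-coding genes. An IDR summit lay at a TSS of 3 of the 19, against 12.0% of all protein-coding genes. The 24 summits of the 19 genes had a median signal value of 269, close to the 267 of the 10 genes, and the strongest ranked 893. It lay upstream of frc, which encodes a Golgi transporter of nucleotide sugars, with a signal value of 746. That summit lay 580 bp from the frc TSS and 98 bp from the TSS of CG32176. The next, with 712, was counted for oxt, the xylosyltransferase that starts the linker on the core protein, but lay 47 bp from the TSS of Elp5.

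Genes that supply or use the sulfate donor followed, with 415 for a summit 1628 bp upstream of sll, a transporter of that donor, and 414 for one 303 bp upstream of Hs3st-A, a 3-O-sulfotransferase. Notum, a secreted enzyme that inactivates Wingless, had 2 intronic summits with 409 and 329. Sdc, the fly syndecan, had an intronic one with 336. Hs3st-B had 318 at the TSS of CG7992, though no summit within 200 bp in replicate 1, and mmy, which makes UDP-N-acetylglucosamine, had 304 at the TSS of Rchy1. Another mmy summit, with 253, lay in an mmy intron, 291 bp from the nearest mmy TSS. The 3 with a summit at the TSS were oxt, with 231, Papss, which makes the sulfate donor, with 227, and Hsepi, the epimerase of the chain, with 203. Of these the oxt summit lay 161 bp from the oxt TSS but 94 bp from the TSS of CG13807. The Hsepi summit lay 145 bp from the Hsepi TSS but 87 bp from the TSS of PGAP3. No IDR summit was found at UGP, which makes UDP-glucose for sgl, or at the linker enzymes beta4GalT7, beta3GalTII and GlcAT-I.

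Peaks just beyond the 5 kb distance were not all weaker than those inside it. Just outside 5 kb lay a summit with a signal value of 595, 7092 bp from sfl, one with 288, 5888 bp from sotv, and one with 243, 6774 bp from dlp, while the farthest inside, 4482 bp from sgl, had 308. At the rank limit of the IDR list the weakest members inside were summits of sfl, botv and dlp, with 183, 184 and 187. Just outside were summits of dally, Sulf1 and dally, with 178, 174 and 172.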

How the data were processed

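Peak lists on dm6 were used from 3 replicates, the pool of their alignments and IDR, and the authors deposited each as 10 columns with a signal value (a score per peak, not scaled between lists) and a summit. Per the README notes deposited with the libraries, peaks came from the alignments and 1 further file, taken here as the control. The aligner, the caller, the IDR threshold and read depths were not given in the sources used here. Lists on the other build were not used here. Summits were assigned with Ensembl release 115 gene models on arms 2L, 2R, 3L, 3R, 4 and X, using pandas 2.3.3 and numpy 2.4.6 in Python 3.11.15, after a check on simulated data. Windows of 201 bp were read from the RefSeq genome, release 6 (dm6), and those printed were cut to the longest stretch outside annotated untranslated regions of transcripts. A replicate matched a peak by its strongest summit within 200 bp. Replicates and the IDR list share reads, so they are not independent of each other. Members and lists were chosen with earlier results of these data known. All 10 members were described, with nearest genes and up to 8 other pathway genes by signal value. The 3 of those with a TSS summit, and the 4 without any, were named after their values were seen. No test was run, since there is 1 group. Alternatives were other distances, interval overlap, a stricter threshold, the strongest of overlapping peaks, nearest TSS, replicate lists and leaving out each replicate.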

Additional observations from a re-analysis of the deposited data

How the results depend on the processing

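The count of 35 summits fell to 18 with gene bodies only, to 12 with the stronger 2700 IDR peaks and to 9 when each summit counted only for the nearest TSS. Keeping only the strongest of overlapping peaks gave 32, and leaving out 1 replicate gave 21 to 25. The count of 9 members became 5 by nearest TSS (botv, Hs2st, Sulf1 and ttv lost) and otherwise lay between 6 and 10. It lost botv without replicate 1. The count of 5 members with a TSS peak became 2 at 100 bp (sgl, Hs2st and dlp lost) and 3 with the stronger 2700 peaks, and dlp was lost in replicate 3's own list and without replicate 1 or 2. For the other pathway genes 15 became 6 with gene bodies only, 7 with the stronger 2700 peaks and 9 by nearest TSS. The share of all protein-coding genes was 13.0% with gene bodies only, 27.0% with the stronger 2700 peaks and 19.0% by nearest TSS. The share of all genes with a TSS peak was not computed under the alternatives. Gene bodies only, the stronger 2700 peaks, the strongest of overlapping peaks, the nearest TSS and leaving out a replicate take fewer summits by construction. For dlp in replicate 3's own list the cause was not tested. The count of 8 genes whose strongest peak was among the 5400 strongest of all 3 replicates stayed at 8 or 9. No paired analysis was possible because there is 1 group. Unknown read depth means that a missing summit cannot be told apart from a shallow library.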
